A study of Homo sapiens with 7 samples.

Results

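The miR-99, miR-100 and miR-125 families were read by 6 assays, for miR-99a, miR-99b, miR-100, miR-125a-5p, miR-125a-3p and miR-125b, out of 377 microRNA assays on the TaqMan Human MicroRNA Array A card, on which each microRNA has its own real-time PCR. The 6 were taken by name, as every assay of these families on the card. Total RNA came from 7 cell lines descended from MDA-MB-435-GFP, an established human tumor line carrying green fluorescent protein, with 1 card for each line. The 3 oligometastatic L1-R2 lines were grown from lungs of mice injected with L1-R1 cells, themselves recovered from lung macrometastases, and the 4 polymetastatic L1Mic-R2 lines from lungs of mice injected with L1Mic-R1 cells, which had been recovered from lung tissue free of macrometastases. All 7 lines share the parental line, 2 passages through the lungs of female athymic mice after tail vein injection, and G418 selection for the cells that carry the fluorescent protein. Each group descends from 1 R1 line, so that the p-values below measure the spread between sublines of 1 selection and between cards, and the R1 lineage cannot be told apart from the metastatic pattern of the group.

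MicroRNAs guide Argonaute proteins to messenger RNAs, which they repress, and most of the pairing runs through the seed, bases 2 to 8 counted from the 5′ end. Members of the miR-99 and miR-100 family are known for repressing MTOR and IGF1R, and members of the miR-125 family for repressing LIN28 and ERBB2. In the genome the families lie together: each of 3 loci carries a miR-99 or miR-100 gene, then a let-7 gene, then a miR-125 gene, in the order of transcription. The let-7 family represses LIN28, RAS and HMGA2 messages.

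The mature sequences show why the 6 assays fall into groups, and they are given from RefSeq (GRCh38.p14) with the seed in capitals. The first 3 share the seed ACCCGUA, which no other human mature microRNA in the RefSeq table carries.
miR-99a: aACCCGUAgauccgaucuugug
miR-99b: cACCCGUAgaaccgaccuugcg
miR-100: aACCCGUAgauccgaacuugug
The next pair share the seed CCCUGAG, and the last is the opposite arm of the miR-125a hairpin, with the seed CAGGUGA.
miR-125a-5p: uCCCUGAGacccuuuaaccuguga
miR-125b: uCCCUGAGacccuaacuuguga
miR-125a-3p: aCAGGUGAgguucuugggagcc
Positions are counted from 1 at the 5′ end. miR-99a and miR-100 are 22 bases long and differ by 1 base, U16A. miR-99b differs from miR-99a at 4 positions (A1C, U11A, U16C and U21C). miR-125a-5p has 24 bases and miR-125b 22, and they share their first 13 and last 5 bases. How far each assay also reads its closest relative was not measured on these cards.

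On chromosome 21 (plus strand), miR-99a lies at chr21:16539101-16539122, let-7c at chr21:16539838-16539859 and a copy of miR-125b at chr21:16590253-16590274, all within MIR99AHG, a gene for a long non-coding RNA. On chromosome 11 (minus strand), miR-100 lies at chr11:122152275-122152296, a copy of let-7a at chr11:122146568-122146589 and the other copy of miR-125b at chr11:122099809-122099830, within the long non-coding MIR100HG. The chromosome 19 locus (plus strand) is far shorter, with 728 bases from the first to the last hairpin against 51237 on chromosome 21 and 52552 on chromosome 11. It holds miR-99b at chr19:51692618-51692639, let-7e at chr19:51692793-51692814, miR-125a-5p at chr19:51693268-51693291 and miR-125a-3p at chr19:51693306-51693327, where RefSeq places the protein-coding SPACA6 and the long non-coding SPACA6-AS1. Exons and introns of these host genes were not analysed here. Mature miR-125b has the same sequence from both of its loci and let-7a from 3, so their assays cannot be assigned to a locus. Both arms of miR-125a are cut from 1 hairpin, shown here because it is the only one with 2 arms among the members, with the 5p and the 3p arm in capitals.
MIR125A: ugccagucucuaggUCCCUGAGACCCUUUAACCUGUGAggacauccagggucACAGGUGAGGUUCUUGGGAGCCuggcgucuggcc
The hairpin spans chr19:51693254-51693339.

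All values are Ct, the cycle of the PCR in which fluorescence crosses a set threshold. Per-line values follow 1 order: 4T, 3T and 8T among the L1-R2 lines, then 2T, 3T, 7T and 8T among the L1Mic-R2 lines. The scale is log2 and runs downward, so that a Ct lower by 1 stands for about a doubling of the RNA. A Ct below 38 counted as detected. Detected microRNAs numbered 172 to 184 per L1-R2 card and 160 to 172 per L1Mic-R2 card, and the mean raw Ct of the 377 microRNAs was 35.44 to 35.63 in L1-R2 and 35.64 to 36.001 in L1Mic-R2. The part of this offset in the raw values was not tested. The control U6 lay between 15.97 and 16.77, and the controls RNU44 and RNU48 spanned 2.29 and 2.16 cycles, with their lowest Ct in L1-R2 line 4T. Because these offsets differ between cards, the group differences of single assays were also computed on raw Ct and on other scalings. Pair differences, SDs and correlations were computed on raw and on quantile-normalized Ct. The L1-R2 cards carry the card numbers 1 to 3 and the L1Mic-R2 cards 4 to 7, so that card order and group cannot be told apart. The marker microRNAs covered melanocytes and other cell types. The melanocytic miR-211 (MDA-MB-435 has been reassigned to melanoma) was detected in 5 of 7 lines, 3 L1-R2 and 2 L1Mic-R2. Its raw Ct was 27.49 to 30.56 in L1-R2, and 40, 33.33, 29.00 and 40 in L1Mic-R2. Detected in 0 lines were the blood markers miR-451 and miR-142-5p, the mesenchymal miR-143, miR-145 and miR-214, and the epithelial miR-141 and miR-205. The other blood markers were detected in 4 lines (miR-223, 1 L1-R2 and 3 L1Mic-R2) and in 2 (miR-142-3p, both L1-R2), the mesenchymal miR-199a-3p in 3, and the other epithelial markers in 7 (miR-200b and miR-200c), 4 (miR-200a), 3 (miR-429) and 2 (miR-203). The endothelial marker list held miR-126 alone, at a raw Ct of 32.46 to 35.06 in L1-R2 and of 28.71 to 32.41 in L1Mic-R2, and the part of these markers in the values of the 6 members was not tested.

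All 6 members were detected in all 7 lines. Raw Ct was lowest for miR-125a-5p, followed in each of the 7 lines by miR-100, miR-99a, miR-125b, miR-99b and miR-125a-3p in that order. Since assays differ in efficiency, this is an order of Ct and not of molecules. The ranges of neighbouring assays over the 7 lines overlapped for miR-100 and miR-99a alone. Of the 377 microRNAs on each card, miR-125a-5p ranked 18 to 21 from the lowest Ct, miR-100 26 to 35, miR-99a 34 to 46, miR-125b 47 to 61, miR-99b 96 to 111 and miR-125a-3p 116 to 140. The 3 RNAs of the ACCCGUA seed thus covered a mean raw Ct of 26.10 (miR-100) to 32.13 (miR-99b), and the CCCUGAG pair 25.02 (miR-125a-5p) to 28.16 (miR-125b).

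**Figure D1:**
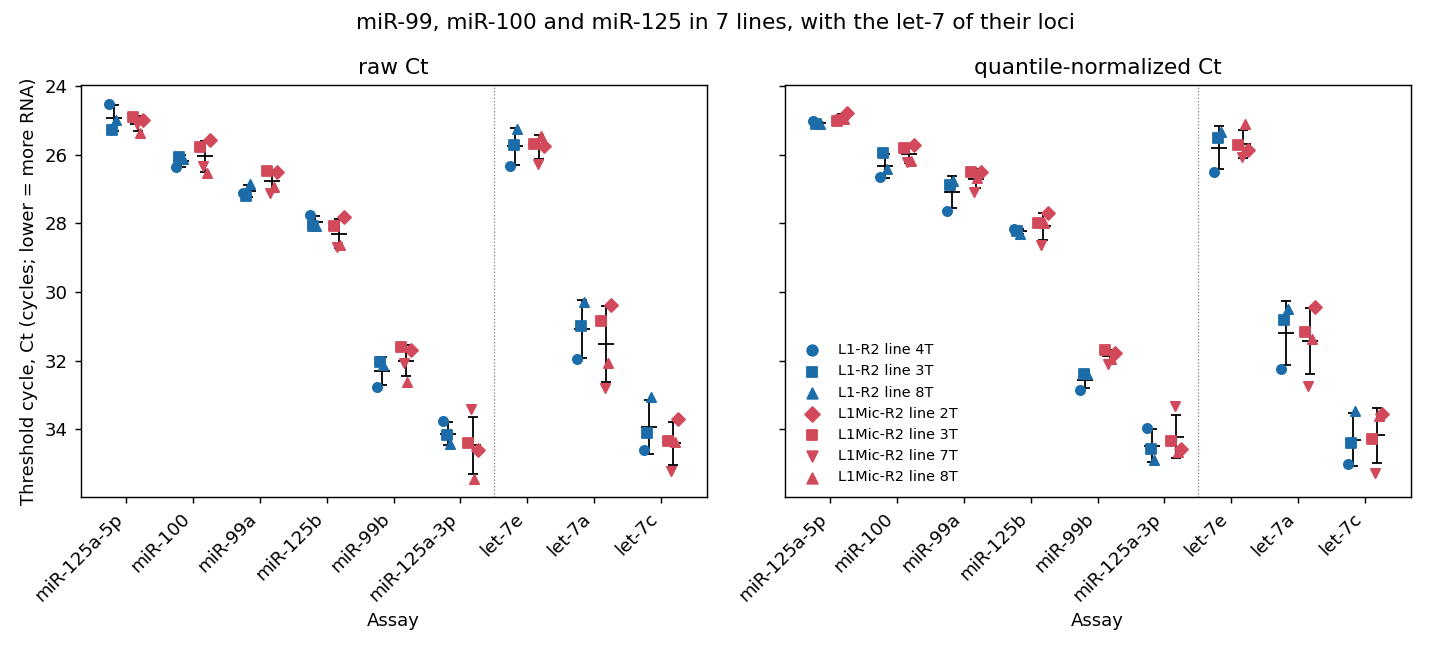
Ct of the 6 members and of the let-7 RNA of each locus (y axis, cycles, drawn downward so that more RNA is higher) in 3 L1-R2 lines (blue) and 4 L1Mic-R2 lines (red), raw on the left and quantile-normalized on the right; bars are the group mean ± SD. Quantile-normalized miR-99b lies at 32.41 to 32.85 in L1-R2 and at 31.68 to 32.09 in L1Mic-R2, while the groups of the other 8 assays overlap on both scales, as do those of raw miR-99b.

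Of the 6 members, 0 passed limma's adjusted threshold of 0.05 between the oligometastatic and the polymetastatic lines. On quantile-normalized Ct all 6 members had a positive difference (more RNA in L1Mic-R2), a count that was 3 of 6 on raw Ct and on Ct minus U6, 4 of 6 on Ct minus the mean of the detected microRNAs and 6 of 6 on Ct minus RNU44 and RNU48. The largest was that of miR-99b, at 0.68 on the log2 scale, and the others ran from 0.15 to 0.40. The median of the 6 was 0.31, against 0.06 over the 181 microRNAs tested. Of these 181, 54.1% lay above 0 on quantile-normalized Ct. On raw Ct the median of the 181 was −0.25, and on Ct minus U6 it was −0.19. It was −0.01 on Ct minus the mean of the detected microRNAs and 0.56 on Ct minus RNU44 and RNU48. The share of the 181 above 0 was not counted on these scalings, so the member counts there have no background share beside them.

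miR-99b, the first RNA of the chromosome 19 locus, had quantile-normalized Ct of 32.85, 32.41 and 32.41 in L1-R2 and of 31.78, 31.68, 32.09 and 31.94 in L1Mic-R2. All 4 L1Mic-R2 lines were below all 3 L1-R2 lines, that is, they held more miR-99b by this measure. The log2 difference was 0.68 ± 0.19 (SE, 95% interval 0.21 to 1.15), or 1.60-fold if each cycle doubles the product. Limma gave it an adjusted p of 0.104 over 181 microRNAs and an unadjusted p of 0.0116. Permuting the 7 values over the groups gave an exact two-sided p of 0.0571, the smallest that 3 against 4 lines allow. It was the 1 member of 6 with an unadjusted limma p under 0.05 and the 1 member without overlap between the groups. Over the 181 microRNAs, 19.3% had such an unadjusted p (9.39% in this direction), 19.3% had groups that did not overlap, and 4.97% passed the adjusted threshold. Without L1Mic-R2 line 7T, 3 members had no overlap. Fewer lines separate more easily, and the share over the card was not counted for that set of lines.
The separation of miR-99b depended on the scale. Raw Ct was 32.77, 32.03 and 32.12 in L1-R2 and 31.69, 31.60, 32.08 and 32.62 in L1Mic-R2, where lines 7T and 8T lay above L1-R2 line 3T. The raw difference was 0.31, and the groups overlapped as well on Ct minus U6, minus RNU44 and RNU48 and minus the mean of the detected microRNAs.

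For miR-99a, which heads the chromosome 21 locus, quantile-normalized Ct was 27.63, 26.88 and 26.76 in L1-R2 and 26.50, 26.50, 27.08 and 26.67 in L1Mic-R2. Line 7T alone among the L1Mic-R2 lines reached into the L1-R2 range, and L1-R2 line 4T had the highest Ct of the 7. The difference was 0.40 ± 0.28 (SE, 95% interval −0.28 to 1.08, limma adjusted p = 0.488), and 0.13 without L1-R2 line 4T.
For miR-100, its near twin on chromosome 11, quantile-normalized Ct was 26.64, 25.96 and 26.40 in L1-R2 and 25.71, 25.79, 26.22 and 26.18 in L1Mic-R2. Lines 7T and 8T of L1Mic-R2 lay above L1-R2 line 3T, and the groups overlapped. The difference was 0.36 ± 0.24 (SE, 95% interval −0.22 to 0.94, limma adjusted p = 0.470).

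miR-125a-5p was the steadiest member after quantile normalization, with Ct of 25.02, 25.10 and 25.10 in L1-R2 and 24.78, 25.02, 24.95 and 24.95 in L1Mic-R2. The highest L1Mic-R2 line equalled the lowest L1-R2 line at 25.02, which counts here as overlap. Its difference was 0.15 ± 0.14 (SE, 95% interval −0.18 to 0.48, limma adjusted p = 0.598), while raw Ct, at 24.51, 25.28 and 24.99 against 24.98, 24.90, 25.09 and 25.37, gave −0.16. The opposite arm, miR-125a-3p, had quantile-normalized Ct of 33.97, 34.57 and 34.91 in L1-R2 and 34.57, 34.34, 33.31 and 34.67 in L1Mic-R2. Line 7T of L1Mic-R2 had the most of it and L1-R2 line 8T the least, and the groups overlapped. The 95% interval of its difference (0.26 ± 0.41 SE, limma adjusted p = 0.737) reached from −0.73 to 1.26. The difference was −0.34 on raw Ct and −0.05 without L1Mic-R2 line 7T.
miR-125b, which both the chromosome 11 and the chromosome 21 locus encode, had quantile-normalized Ct of 28.17, 28.21 and 28.32 in L1-R2 and 27.70, 27.98, 28.63 and 27.98 in L1Mic-R2. The L1-R2 lines sat together, and the L1Mic-R2 lines surrounded them, with line 7T above and the other 3 below. The difference was 0.16 ± 0.25 (SE, 95% interval −0.44 to 0.76, limma adjusted p = 0.737), and on raw Ct it was −0.34.

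A constant that is subtracted from every assay of a card moves all members alike, so that their order relative to each other does not depend on it. Set against the median of the 181 microRNAs, which itself was −0.25 on raw Ct, −0.19 on Ct minus U6 and 0.56 on Ct minus RNU44 and RNU48, the differences were 0.55 for miR-99a, 0.55 for miR-99b, 0.38 for miR-100, 0.08 for miR-125a-5p, −0.09 for miR-125a-3p and −0.09 for miR-125b. These values are the same by construction on raw Ct and under every scaling that subtracts a constant, so those scalings are not separate results. On them the ACCCGUA RNAs stood above the median of the card, whereas the miR-125 RNAs lay between −0.09 and 0.08 of it. Under quantile normalization the differences from the median, in the same order, were 0.34, 0.62, 0.30, 0.09, 0.20 and 0.10. The share of the 181 microRNAs as far above the median was not counted.

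**Figure D2:**
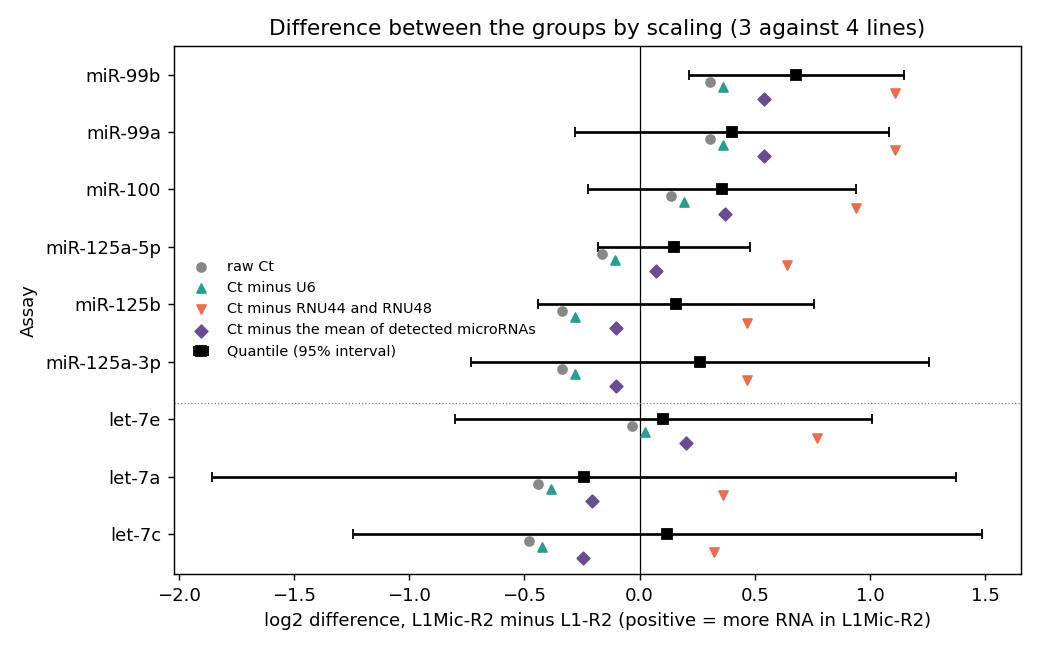
Difference between L1Mic-R2 (4 lines) and L1-R2 (3 lines) on the log2 scale (x axis, positive for more RNA in L1Mic-R2) for the 6 members and the let-7 RNA of each locus; the square with its bar is the quantile-normalized value with its 95% limma interval and the other symbols are the remaining scalings. The interval of miR-99b (0.21 to 1.15) alone leaves out 0, and the difference of miR-125b runs from −0.34 on raw Ct to 0.47 on Ct minus RNU44 and RNU48.

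Differences between 2 assays of 1 card are free of any offset of that card, and 14 such pairs were compared between the groups, each by an exact two-sided permutation test whose smallest p is 0.0571, so that no pair could pass 0.05. After Benjamini-Hochberg adjustment over the 14, the lowest exact p was 0.533 on quantile-normalized and 0.4 on raw Ct. Groups did not overlap for 1 of the 14 on quantile-normalized Ct and for 2 on raw Ct. Among the 9045 pairs that the 135 microRNAs detected in all lines form, 24.8% and 26.5%, respectively, had groups that did not overlap.

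Within the chromosome 21 locus, raw Ct of miR-99a minus that of miR-125b was −0.63, −0.86 and −1.22 in L1-R2 and −1.33, −1.61, −1.57 and −1.68 in L1Mic-R2. All L1Mic-R2 lines had a more negative value, meaning more miR-99a for a given miR-125b, with a mean shift of −0.64 cycles (exact permutation p = 0.0571). On quantile-normalized Ct the groups overlapped, and the shift was −0.24 with all lines and 0.0645 without L1-R2 line 4T.
For miR-100 minus miR-125b, the pair of the chromosome 11 locus, raw values were −1.38, −2.01 and −1.96 in L1-R2 and −2.27, −2.31, −2.37 and −2.09 in L1Mic-R2. Again the L1Mic-R2 lines lay below the L1-R2 lines without overlap, by −0.47 cycles on average (exact permutation p = 0.0571), while the quantile-normalized shift was −0.20 with overlap. miR-125b is common to both pairs, so they are not separate observations.
In the chromosome 19 locus, miR-99b minus miR-125a-5p was 7.83, 7.31 and 7.31 in L1-R2 and 7.0, 6.66, 7.14 and 7.0 in L1Mic-R2 on quantile-normalized Ct. These groups did not overlap and differed by −0.53 cycles (exact permutation p = 0.0571). Their raw values were 8.27, 6.75 and 7.13 against 6.71, 6.70, 6.99 and 7.25, which overlap, and L1-R2 line 4T stands above the others there.

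The shared direction of these pairs can be put as 1 number per line, the mean Ct of the ACCCGUA RNAs minus the mean Ct of miR-125a-5p and miR-125b. It was chosen after the values were seen and therefore has no test. On raw Ct it was 2.62, 1.76 and 1.83 in L1-R2 and 1.51, 1.46, 1.61 and 1.70 in L1Mic-R2. The L1-R2 lines 3T and 8T lay just above the L1Mic-R2 range and line 4T well above it. On quantile-normalized Ct the groups overlapped, with 2.44, 1.76 and 1.81 against 1.76, 1.49, 1.67 and 1.80.

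**Figure D3:**
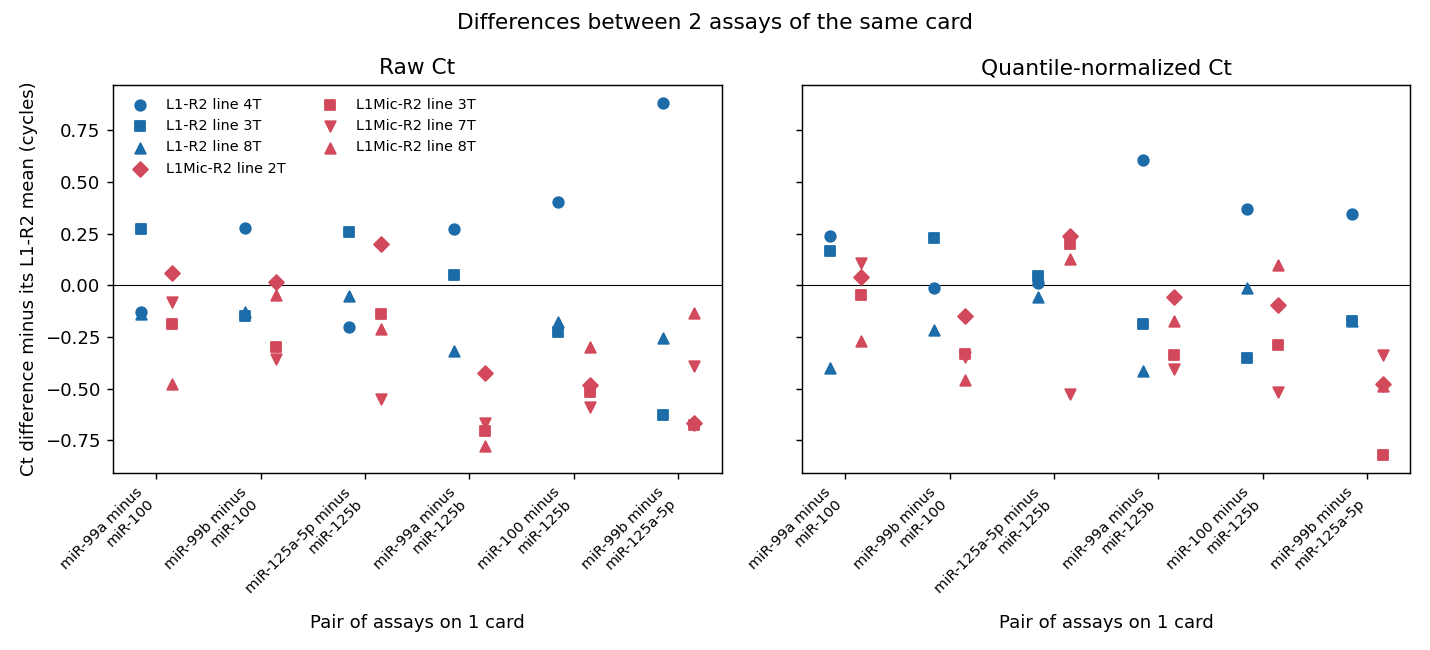
Ct difference between 2 assays of the same card, minus its mean over the 3 L1-R2 lines (y axis, cycles), for 6 of the 14 pairs, on raw Ct (left) and quantile-normalized Ct (right); each point is 1 line, blue for L1-R2 and red for L1Mic-R2. On raw Ct the red points of miR-99a minus miR-125b and of miR-100 minus miR-125b lie below all blue points, and on quantile-normalized Ct the same holds for miR-99b minus miR-125a-5p.

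Distances between RNAs of 1 seed, which lie at different loci, varied less than the median over pairs of any Ct level. Raw Ct of miR-99a minus miR-100 stayed between 0.40 and 1.15 in the 7 lines (SD 0.230), that of miR-99b minus miR-100 between 5.77 and 6.40 (SD 0.211), and that of miR-99a minus miR-99b between −5.67 and −4.82 (SD 0.321). The median SD over the 9045 pairs was 0.721 on the same scale, with a lower quartile of 0.504. miR-125a-5p minus miR-125b stayed between −3.59 and −2.79 (SD 0.273). A low SD was not limited to pairs of 1 seed, since miR-100 minus miR-125b had an SD of 0.335. The part of the Ct level in these SDs was not tested, and no median was computed over pairs of like Ct. Between the groups miR-99a minus miR-100 shifted by −0.17 cycles, miR-99b minus miR-100 by −0.17 and miR-125a-5p minus miR-125b by −0.18, with exact permutation p of 0.457, 0.343 and 0.4 before adjustment. For the 2 arms of the miR-125a hairpin shown above, raw Ct of miR-125a-5p minus that of miR-125a-3p was −9.21 ± 0.28 in L1-R2 and −9.38 ± 0.74 in L1Mic-R2 (SD, n = 3 and 4). Line 7T, at −8.34, had the arms closest together and line 8T of L1Mic-R2, at −10.07, farthest apart.

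The distance between a member and the let-7 RNA of its locus varied more than that between RNAs of 1 seed. The SD of raw Ct differences was 0.731 for miR-100 minus let-7a, 0.634 for miR-99a minus let-7c and 0.514 for miR-99b minus let-7e. Over the 9045 pairs the median was 0.721. Without let-7, pairs of 1 locus had 0.551 (miR-99b minus miR-125a-5p), 0.555 (arms of miR-125a), 0.3999 (miR-99a minus miR-125b) and 0.335 (miR-100 minus miR-125b). The part of the Ct level in these SDs (mean raw Ct 31.33 for let-7a and 34.20 for let-7c) was not tested. Raw Ct of let-7a was 31.97, 30.98 and 30.30 in L1-R2 and 30.38, 30.84, 32.81 and 32.06 in L1Mic-R2, a span of 2.51 cycles against 0.99 for miR-100. Lines 4T of L1-R2 and 7T and 8T of L1Mic-R2 had the least let-7a, and the groups overlapped. Raw Ct of let-7c was 34.62, 34.12 and 33.06 in L1-R2 and 33.69, 34.35, 35.21 and 34.39 in L1Mic-R2, against a span of 0.74 for miR-99a. Here too L1-R2 line 8T had the most and L1Mic-R2 line 7T the least. let-7e, which lies between miR-99b and miR-125a, was at 26.31, 25.70 and 25.23 in L1-R2 and 25.73, 25.67, 26.28 and 25.45 in L1Mic-R2. The 8 let-7 family assays of the card (let-7a to let-7g and miR-98) counted 3 above and 5 below 0 on quantile-normalized Ct, 1 above and 7 below on raw Ct, 2 and 6 on Ct minus U6 or minus the mean of the detected microRNAs, and 7 and 1 on Ct minus RNU44 and RNU48. Over the 181 microRNAs tested the median difference was 0.06 on quantile-normalized Ct and −0.25 on raw Ct. It was −0.19 with U6, −0.01 with the detected mean and 0.56 with RNU44 and RNU48. On quantile-normalized Ct 0 of 8 passed the adjusted threshold (limma adjusted p 0.384 to 0.989), against 4.97% of the 181. Of the 8, 0 had an unadjusted p under 0.05, against 19.3% of the 181. The differences of the 8 ran from −0.84 for let-7b to 2.92 for miR-98. Raw Ct of miR-98 was 39.60 in L1-R2 line 8T and between 32.62 and 34.41 in the other 6 lines.

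The pooled SD within groups puts the members among the 135 microRNAs detected in every line. On raw Ct it was 0.274 for miR-99a, 0.294 for miR-125a-5p, 0.346 for miR-125b, 0.370 for miR-100, 0.440 for miR-99b and 0.678 for miR-125a-3p, against a median of 0.437 over the 135. From the steadiest, they ranked 29, 35, 49, 54, 69 and 109. For scale, each member was set against the 29 to 46 microRNAs within 2 cycles of its mean Ct. Their median raw SD was 0.311 for miR-99a, 0.268 for miR-125a-5p, 0.350 for miR-125b and 0.292 for miR-100. It was 0.598 for miR-99b and 0.662 for miR-125a-3p. Quantile normalization narrowed miR-125a-5p to 0.0846 (rank 4 of 135) and miR-99b to 0.214 (rank 27), and widened miR-99a to 0.367 (rank 61). A microRNA whose rank hardly moves between cards is given nearly the same value on each by this method, and the rank of miR-125a-5p moved from 18 to 21 only. For the let-7 neighbours the pooled SD on quantile-normalized Ct was 0.949 for let-7a, 0.797 for let-7c and 0.511 for let-7e, against 0.568 for miR-125a-3p, the widest member.

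**Figure D4:**
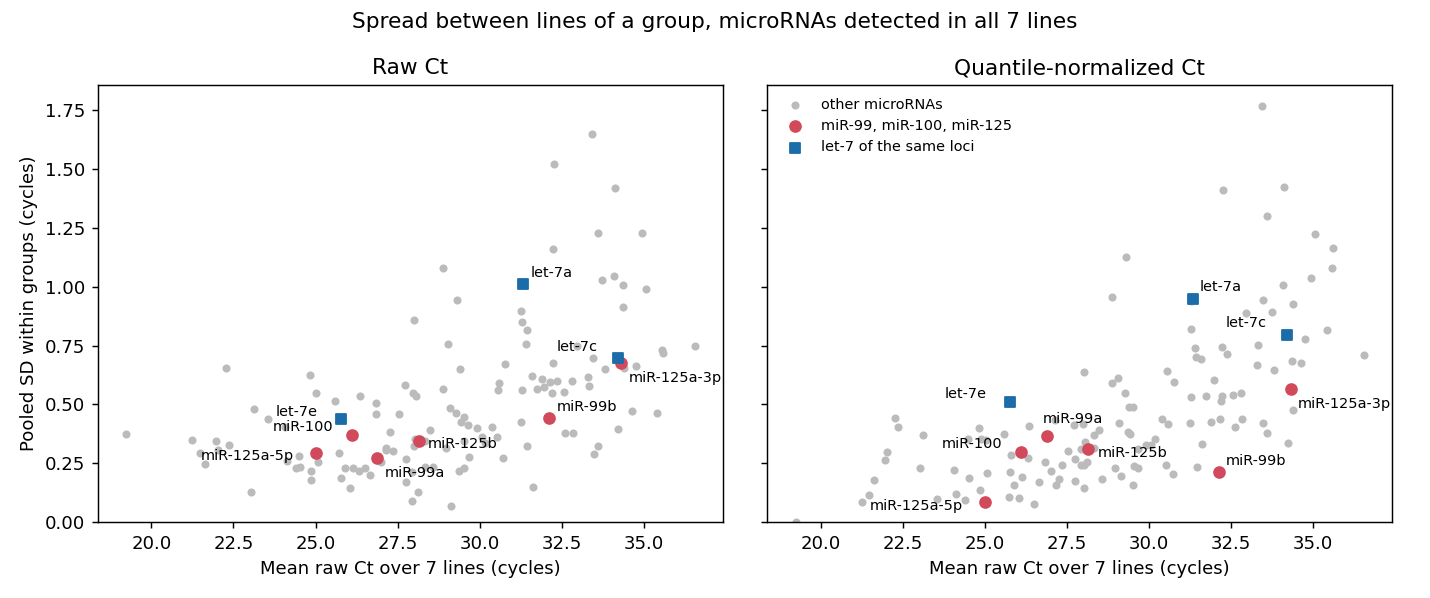
Pooled SD within the 2 groups (y axis, cycles) against the mean raw Ct over the 7 lines (x axis, cycles) for the 135 microRNAs detected in all lines, on raw (left) and quantile-normalized Ct (right). Members are in red and the let-7 RNA of each locus in blue: miR-125a-5p moves from 0.294 to 0.0846 and miR-99b from 0.440 to 0.214, whereas let-7a lies at 1.01 and 0.949.

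Across lines, the ACCCGUA RNAs varied together. Pearson's r over the 7 lines, on quantile-normalized Ct, was 0.86 for miR-99a with miR-99b, 0.81 for miR-99a with miR-100 and 0.82 for miR-99b with miR-100, and on raw Ct 0.67, 0.75 and 0.88. These coefficients are descriptions, since the 7 points share 2 groups and a common normalization. miR-125a-5p with miR-125b gave 0.52 on quantile-normalized and 0.67 on raw Ct. The arms of miR-125a gave 0.16 and 0.51. High values were not limited to RNAs of 1 seed. miR-99a with let-7a, let-7c and let-7e gave 0.70, 0.73 and 0.70 on quantile-normalized and 0.59, 0.38 and 0.37 on raw Ct. miR-100 with let-7a gave 0.51 and 0.75. For miR-99b, let-7a, let-7c and let-7e gave 0.28, 0.39 and 0.39 on quantile-normalized Ct. miR-125a-3p ran opposite to let-7a, at −0.91 on quantile-normalized and −0.33 on raw Ct, and opposite to let-7e of its own locus, at −0.71 and −0.77.
Of the 129 microRNAs outside the families that were detected in all lines, the most like each member on quantile-normalized Ct were miR-149 (r = 0.94) and miR-193b (0.84) for miR-99a, miR-876-5p (0.94) and miR-149 (0.93) for miR-99b, and miR-24 (0.92) and miR-210 (0.81) for miR-100. For miR-125a-5p they were miR-140-5p (0.82) and miR-19a (0.80), for miR-125b miR-193a-5p (0.92) and miR-27a (0.88), and for miR-125a-3p miR-628-5p (0.95) and miR-339-3p (0.91). On raw Ct the 12 coefficients ran from 0.25 to 0.90. They had been picked as the highest of 129 on quantile-normalized Ct over 7 lines, which favours high values on that scale. The range on raw Ct therefore does not show how far likeness depends on the scale.

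miR-10a and miR-10b, from loci in the HOX gene clusters, have a sequence related to miR-99a and miR-100, but their seed is another. The mature miR-10a of RefSeq is shown for comparison with miR-100 above.
miR-10a: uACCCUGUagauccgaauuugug
It was detected in all 7 lines, at a raw Ct of 30.04, 30.38 and 30.57 in L1-R2 and 30.26, 30.19, 30.89 and 31.76 in L1Mic-R2. The groups overlapped, and the quantile-normalized difference was −0.23 ± 0.31 (SE, limma adjusted p = 0.721), where all 6 members were above 0 on that scale. miR-10b was detected in L1-R2 lines 4T and 3T, at 35.06 and 36.26, and in no other line (38.90 to 40), so that it did not enter the test.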

How the data were processed

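Total RNA of 7 cell lines was measured on 1 TaqMan Human MicroRNA Array A card each. The authors imported the cards with SDS RQ Manager at a threshold of 0.3. The deposited values used here are the average Ct of each assay, in cycles on a log2 scale, before normalization, with 40 for an Undetermined well. Groups and line numbers are those of the GEO labels. The deposited names swap the numbers of 3T and 4T within L1-R2, which leaves the groups as they are. Where the labels speak of SYBR and of injection into the mammary fat pad, the TaqMan chemistry and tail vein injection of the paper were taken as correct.

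Ct of 381 assays was quantile normalized over the 7 cards, the normalization that the study names, in limma 3.58.1 (R 4.3.3). Tests covered the 181 of 377 microRNAs with raw Ct under 38 in 3 or more lines, of which 135 met this in all 7. The lmFit and eBayes functions of limma compared the groups on 40 minus the normalized Ct, and p-values were adjusted by the Benjamini-Hochberg method over the 181. Single values and differences between 2 assays were compared by exact two-sided permutation tests over the 35 splits of the lines (SciPy 1.17.1). Assays named without an arm were matched to the 5p sequence of RefSeq. In 100 simulations of 181 microRNAs with 20 changed by 3 on the log2 scale, 72.6% of these were called, and on average 4.72% of the calls were false. The member differences, 0.15 to 0.68, were far smaller, and recovery at such a size was not simulated. The members, the let-7 and miR-10 comparisons and the marker microRNAs were chosen with earlier results of these data known. The text names the members, their let-7 and miR-10 relatives, the controls, the markers, and for each member the 2 microRNAs with the highest Pearson correlation. Alternatives were raw Ct, other scalings (U6, both RNU controls, mean of the detected microRNAs), Ct limited to 38 or to 35, a detection filter in all lines or none, limma with trend and robust options, the methods' t-test, pairing of lines by number, and leaving out each line in turn. With 1 card per line, spread between lines and error of the measurement cannot be told apart.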

Additional observations from a re-analysis of the deposited data

Results flagged for a closer look

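Of 23 sets of 4 L1Mic-R2 values examined for a line far from the rest (the members, the let-7 RNA of each locus and the pair differences, on quantile-normalized Ct), 2 held one, where chance gives 1.15. The L1-R2 values were not examined in this way, so nothing here compares stray lines between the groups. For miR-99b minus let-7e, line 8T stood at 6.85 cycles and the other 3 L1Mic-R2 lines between 5.92 and 6.03, a gap of 0.879 of the range. For miR-125a-5p minus miR-125b, line 7T stood at −3.69 and the others between −3.04 and −2.92, a gap of 0.854 of the range. Line 8T had the lowest Ct of let-7e of the 4 lines and line 7T the highest Ct of miR-125b. On raw Ct line 8T was again apart for the first pair, at 7.17 against 5.80 to 5.96, while for the second line 7T was at −3.59 and the next at −3.25.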

How the results depend on the processing

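Over leaving out 1 line at a time and 12 other alternatives, 0 members had an adjusted p under 0.05 and the differences of miR-99a, miR-99b and miR-100 stayed above 0. Adjusted p of miR-99b ran from 0.0571 to 0.632 over the 12 alternatives and from 0.0985 to 0.237 without 1 line. Of 114 member differences recomputed, 104 kept their direction and 10 changed it, as did 15 of 76 for let-7 and miR-10a and 28 of 154 pair differences. The cause of these changes was not tested. For single assays, the other detection filters, the trend and robust options and the t-test do not alter the group means. Their direction was therefore fixed in advance, and these settings are no evidence that it is stable. Limiting Ct to 38 also returned each main difference.

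On raw Ct, differences changed sign to −0.16 for miR-125a-5p, −0.34 for miR-125a-3p, −0.34 for miR-125b, −0.48 for let-7c and −0.0343 for let-7e, and on Ct minus U6 to −0.11 for miR-125a-5p, −0.28 for miR-125a-3p, −0.28 for miR-125b and −0.42 for let-7c. On Ct minus the detected mean they were −0.10 for miR-125a-3p, −0.10 for miR-125b and −0.24 for let-7c, and with RNU44 and RNU48 0.36 for both let-7a and miR-10a. Members above 0 numbered 3 on raw Ct and with U6. Members with an unadjusted p under 0.05 numbered 0 on raw Ct, with U6, with both RNU controls, with the detected mean, with the trend and robust options of limma and under both blocks, and members without overlap 0 under the same 4 scalings. Raw pair differences were −0.13 for let-7e minus miR-125a-5p, −0.18 for miR-125a-5p minus miR-125a-3p, −0.18 for miR-125a-5p minus miR-125b and −0.000312 for miR-99a minus miR-99b, and with Ct limited to 35 miR-125a-5p minus miR-125a-3p was −0.00239.

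MicroRNAs with an adjusted p under 0.05 over the card numbered 14 among those detected in all lines, 21 with the trend and robust options, and 0 with RNU44 and RNU48, without a detection filter, by the methods' t-test or under either block.

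Line numbers 3T and 8T occur in both groups. Deviations of same-numbered lines from their group means had correlations of −0.0441 and −0.197 by the labels, and 0.0191 and −0.197 by the deposited names. So few pairs cannot decide whether such lines share more than a number. With a replicate block by the labels the card held 19 microRNAs with an unadjusted p under 0.05, let-7c was at −0.00206, miR-99a minus miR-125b at 0.0485 and miR-100 minus miR-125b at 0.0897. With the block by the deposited names miR-125a-3p was at −0.0618, let-7a at 0.11, let-7c minus miR-125b at −0.0421, let-7e minus miR-125a-5p at −0.44 and miR-125a-5p minus miR-125a-3p at −0.14.

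Without 1 line, the difference ran from 0.13 (without L1-R2 line 4T) to 0.55 for miR-99a, from 0.52 to 0.80 for miR-99b, from 0.21 to 0.53 for miR-100, from 0.02 to 0.37 for miR-125b, from −0.0483 (without L1Mic-R2 line 7T) to 0.54 for miR-125a-3p, from −0.76 to 0.17 for let-7a, from −0.25 to 0.54 for let-7c and from −0.22 to 0.33 for let-7e. Members without overlap numbered 1 to 3 (3 without L1Mic-R2 line 7T, 2 without L1-R2 line 4T or 3T or L1Mic-R2 line 3T), members above 0 numbered 5 to 6, and microRNAs called over the card 0 to 4 against 9 with all lines, whichever of the 7 lines was left out. Fewer lines separate more easily, and the share of the card without overlap was not counted in these settings. Pair differences ran from −0.42 to 0.0645 for miR-99a minus miR-125b, −0.41 to 0.44 for let-7c minus miR-125b, −0.20 to 0.41 for let-7e minus miR-125a-5p, −0.19 to 0.35 for miR-125a-5p minus miR-125a-3p, −0.22 to 0.0827 for miR-99a minus miR-100 and −0.0858 to 0.22 for miR-125a-5p minus miR-125b.

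With 3 and 4 lines, no permutation p can fall below 0.0571. Ct gives no count of molecules, so the counting error at the highest Ct among the members, 33.43 to 35.45 for raw miR-125a-3p, is unknown.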
